A study of Rattus norvegicus with 26 samples.

Results

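The metabotropic GABA-B receptor is encoded by a pair of genes, Gabbr1 (ENSRNOG00000000774) and Gabbr2 (ENSRNOG00000008431), and both were measured in rat spinal cord after compression injury with or without transplanted mesenchymal stem cells of the human umbilical cord (hUC-MSCs). The members are the 2 genes of these names among the 32883 genes in the count table, and both passed the expression filter that left 17990 genes for testing. The study asked how spinal cord transcripts at the lesion change when hUC-MSCs are given at a subacute stage of spinal cord injury (SCI), and sequenced poly(A) RNA from 26 libraries in 8 groups.

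All rats were wild-type adult female Sprague-Dawley animals of 250 g, with an age of postnatal day 70 in the labels of every group. The 4 Intact libraries are labelled untreated, and the study describes their rats as intact or sham. The other groups had a clip compression of 60 g for 1 min at thoracic level T10, which leaves an incomplete lesion. The 3 sub-SCI libraries were taken at 0 weeks post-transplantation (wpt), that is, 7 days after injury and before any injection. The +PBS groups were injured rats without cells, given phosphate-buffered saline (3 libraries at 1 wpt, 2 at 2 wpt and 4 at 4 wpt), and the +MSC groups were injured rats given hUC-MSCs into the intrathecal space 7 days after injury (3, 3 and 4 libraries). According to the methods, rats received cyclosporin A daily over the whole experiment, so immune suppression was shared by +PBS and +MSC. Nothing says whether Intact rats, or sub-SCI rats taken before any injection, had it. Each library was made from a 5 mm segment centred on the lesion, a mixture of all cell types there, and the labels do not say whether a library is 1 rat. Libraries held between 19496602 and 43468509 counts.

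GABA-B receptors are G protein-coupled receptors for the inhibitory transmitter GABA. They work as obligate heterodimers. The GABA-B1 subunit, from Gabbr1, binds GABA, and the GABA-B2 subunit, from Gabbr2, brings the pair to the cell surface and couples it to Gi and Go proteins, which then open GIRK potassium channels, close presynaptic calcium channels and lower adenylyl cyclase activity. In the spinal cord the receptor restrains transmitter release from primary afferents and dampens motor output, and it is the target of the antispastic drug baclofen.

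The DNA before the annotated start of each gene is given first as a description, and its part in the levels of the 2 genes was not tested. The sequences are from RefSeq on build GRCr8, both on the minus strand, written 5′ to 3′ and ended at the outermost annotated start of the gene. Capitals mark the GC box GGGCGG and the half-site TGACG of the cAMP response element, searched on both strands; CCGCCC and CGTCA are their reverse complements, and a GC box and a half-site can share at most 1 base.
Gabbr1, 134 bases at chr20:1499353-1499486: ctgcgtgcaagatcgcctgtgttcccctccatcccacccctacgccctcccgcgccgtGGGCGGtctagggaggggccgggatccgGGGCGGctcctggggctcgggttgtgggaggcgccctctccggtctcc
Gabbr2, 250 bases at chr5:66083696-66083945: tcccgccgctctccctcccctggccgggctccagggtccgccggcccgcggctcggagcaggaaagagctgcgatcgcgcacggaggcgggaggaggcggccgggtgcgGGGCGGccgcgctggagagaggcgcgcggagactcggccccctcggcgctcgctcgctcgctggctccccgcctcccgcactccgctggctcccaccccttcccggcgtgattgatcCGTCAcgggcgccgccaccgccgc

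In RefSeq's window of 300 bases, from 250 before to 50 after the start, Gabbr1 had a GC content of 75.0% and 32 CpG dinucleotides, and Gabbr2 had 78.7% and 47. The medians over 33469 rat promoters were 51.7% and 7. The Gabbr1 window, whose start lies 116 bases inside the outermost gene model, held 4 GC boxes and no TGACG. The Gabbr2 window held 1 GC box and 1 TGACG. A GC box was in 33.1% of all windows and TGACG in 21.2%. Neither window held TATAAA (14.2% of windows) or TGACGTCA, the full element that contains the half-site (1.8%). These matches describe the letters only.

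In intact cord Gabbr1 was the far more abundant transcript. Values are given as CPM, the count as a share of the library size after scaling by the trimmed mean of M-values, and, to compare the genes with each other, as RPKM, the same per kilobase of gene model. Gabbr1 stood at 968, 863, 862 and 807 CPM in the 4 Intact libraries, and Gabbr2 at 153, 120, 124 and 126 CPM. Per length, the Intact means were 130 ± 9.99 RPKM for Gabbr1 and 23.9 ± 2.69 RPKM for Gabbr2 (SD, n = 4). The transcript of the ligand-binding subunit was thus 5.45 ± 0.338 times that of the coupling subunit in RPKM.

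Both genes fell after injury, Gabbr2 to a lower share of its intact level than Gabbr1. In the 3 sub-SCI libraries Gabbr1 was at 326, 295 and 196 CPM. Gabbr2 was at 18.1, 24.4 and 12.4 CPM. Every sub-SCI library lay below every Intact library for both genes, as was the case for 34.0% of all genes tested. Relative to the Intact mean, 31.1% ± 7.72 of Gabbr1 and 14.0% ± 4.58 of Gabbr2 were left (SD, n = 3). The log2 fold change was -1.68 for Gabbr1 (SE 0.185, 95% interval -2.07 to -1.30, adjusted p = 1.07e-07) and -2.84 for Gabbr2 (SE 0.297, interval -3.46 to -2.22, adjusted p = 5.22e-08) in edgeR's quasi-likelihood test. Of the 17990 genes, 30.9% were lower in sub-SCI at an adjusted p under 0.05, the threshold by which a gene is said below to pass. In bulk tissue, fewer cells of a type and less RNA per cell cannot be told apart.

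Without cells, both genes stayed below intact levels at all 3 times. Gabbr1 was at 411, 446 and 297 CPM in +PBS-1w, at 484 and 479 CPM in +PBS-2w and at 590, 362, 408 and 463 CPM in +PBS-4w. Gabbr2 was at 31.5, 30.4 and 24.9 CPM in +PBS-1w, at 21.7 and 46.8 CPM in +PBS-2w and at 33.8, 17.3, 22.2 and 26.2 CPM in +PBS-4w. No +PBS library reached the lowest Intact library for either gene. Non-overlap of this kind, with the injured group lower, was seen in 30.5%, 31.3% and 21.3% of all genes at 1, 2 and 4 wpt. The 2 libraries of +PBS-2w were nearly equal in Gabbr1 but differed by more than 2-fold in Gabbr2.

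The decline in the transcript of the ligand-binding subunit was smaller at each of these times. For Gabbr1 the log2 fold changes against Intact were -1.19 (SE 0.182, adjusted p = 1.45e-05), -0.86 (SE 0.207, adjusted p = 0.00282) and -0.94 (SE 0.164, adjusted p = 6.85e-05) at 1, 2 and 4 wpt. For Gabbr2 they were -2.17 (SE 0.287, adjusted p = 2.31e-06), -1.93 (SE 0.333, adjusted p = 0.00013) and -2.40 (SE 0.260, adjusted p = 2.19e-07). Both genes therefore passed in all 3 comparisons, in which 26.4%, 17.0% and 23.9% of all genes passed with lower levels. These comparisons share the Intact libraries with each other and with the comparison of sub-SCI.

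Against sub-SCI, Gabbr1 was higher in 2 of the 3 groups without cells. It was higher by 0.82 on the log2 scale in +PBS-2w (SE 0.208, adjusted p = 0.00914) and by 0.74 in +PBS-4w (SE 0.179, adjusted p = 0.00436), while 9.99% and 13.4% of all genes were higher. The +PBS-2w call was lost in each fit without sub-SCI replicate 3 or 1 of the +PBS-2w libraries, with adjusted p up to 0.0823. In edgeR on the 2 groups alone neither call held (0.81, adjusted p = 0.0822, and 0.73, adjusted p = 0.107). In +PBS-1w the value was 0.50 (SE 0.189, adjusted p = 0.151; 1.33% of genes were higher). Gabbr2 did not pass at any of these times. Its values were 0.67 (SE 0.290, adjusted p = 0.216), 0.91 (SE 0.318, adjusted p = 0.0502) and 0.45 (SE 0.273, adjusted p = 0.247), with a 95% interval of -0.12 to 1.01 at 4 wpt. At 2 wpt the value of Gabbr2 rested on single libraries. It was 1.32 without +PBS-2w replicate 1 and 0.25 without +PBS-2w replicate 2, each with only the other library in that group. Gabbr2 passed at 2 wpt in 7 of the 26 fits that each left out 1 library.

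Markers of several cell types differed in the same comparisons. In +PBS-2w and +PBS-4w against sub-SCI, 4 and 3 of 15 neuron markers were higher (medians 1.20 and 0.89), as were 10 and 8 of 12 astrocyte markers (medians 1.31 and 1.10), and 5 and 3 of 8 fibroblast markers (medians -2.58 and -1.55) and 1 and 6 of 12 microglia and macrophage markers were lower. Of the 17990 genes tested, 3331 and 4511 passed in these comparisons, 1798 and 2418 of them higher. The 1 of 12 microglia and macrophage markers in +PBS-2w was near the share of all genes that were lower. In +PBS-1w 0 neuron, 1 astrocyte and 0 fibroblast markers passed, beside 511 of all genes, 239 of them higher. The median over all genes was between 0.01 and 0.06 in these comparisons, and the part of the markers in the level of Gabbr1 was not tested.

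**Figure D1:**
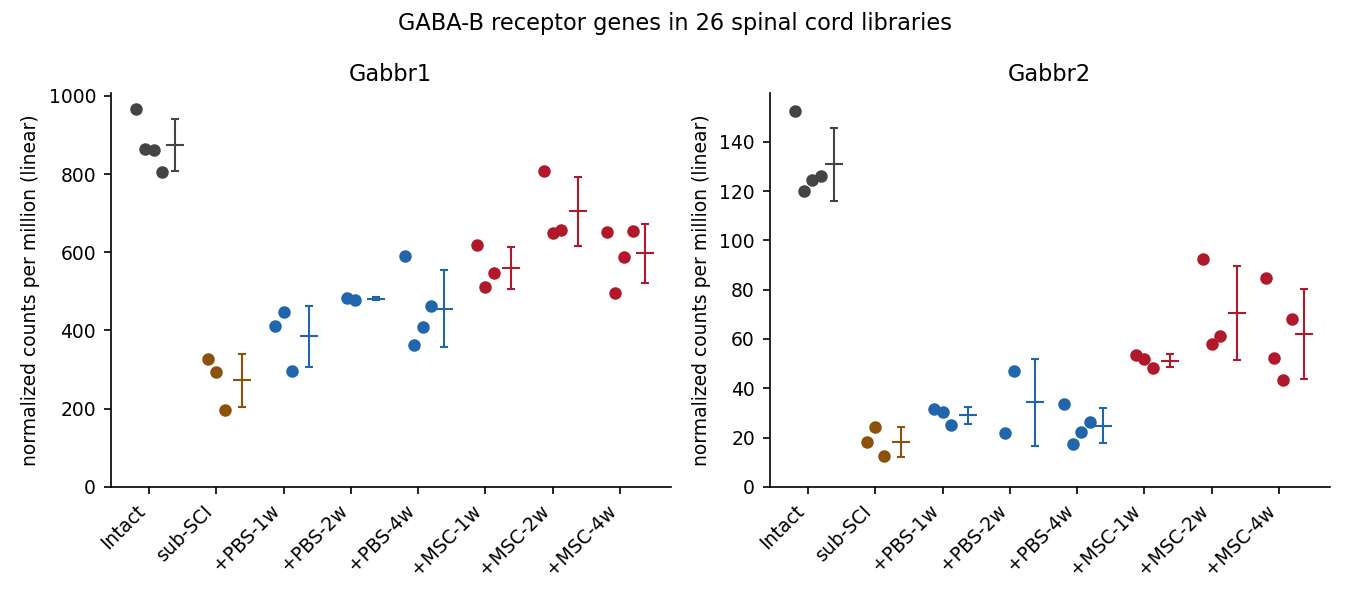
Normalized CPM (linear axes from 0) of Gabbr1 and Gabbr2 in each of the 26 libraries, by group. Points are libraries, and the horizontal ticks with bars are group means ± SD. All Intact libraries lie above all sub-SCI and +PBS libraries in both panels, and in the Gabbr2 panel the +MSC libraries, at 43.5 to 92.4 CPM, lie between the +PBS libraries of their own week and Intact.

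With hUC-MSCs both receptor transcripts were higher than with PBS. Gabbr1 was at 618, 512 and 547 CPM in +MSC-1w, at 808, 650 and 656 CPM in +MSC-2w and at 652, 495, 587 and 655 CPM in +MSC-4w. Gabbr2 was at 53.3, 51.9 and 48.4 CPM in +MSC-1w, at 92.4, 57.9 and 61.0 CPM in +MSC-2w and at 84.9, 52.3, 43.5 and 68.0 CPM in +MSC-4w. For Gabbr2 every +MSC library lay above every +PBS library of the same week at all 3 times, which was so for 2.68% of all genes tested. For Gabbr1 this held at 1 and 2 wpt, as for 15.3% and 18.6% of all genes at these times, and the ranges overlapped at 4 wpt, where +PBS-4w replicate 1, at 590 CPM, was above 2 of the 4 +MSC libraries.

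Averaged over the 3 weeks, both genes passed. The mean log2 difference between +MSC and +PBS was 0.49 for Gabbr1 (SE 0.110, 95% interval 0.27 to 0.72, adjusted p = 0.00389), a 1.41-fold higher level. For Gabbr2 it was 1.06 (SE 0.169, interval 0.71 to 1.41, adjusted p = 0.000499), a 2.09-fold higher level. Of all genes, 12.3% were higher by this test. With the study's stricter criteria for differentially expressed genes, an adjusted p under 0.01 and a log2 fold change above 1, Gabbr2 was among the 1.61% of genes that were higher, and Gabbr1 was not. Without the 8 libraries labelled replicate 1, the means were 0.48 for Gabbr1 and 0.84 for Gabbr2. Only replicate 2 is then left in +PBS-2w.

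Week by week, only 1 of the 6 tests passed. For Gabbr1 the log2 fold changes at 1, 2 and 4 wpt were 0.54 (SE 0.189, adjusted p = 0.156), 0.55 (SE 0.214, adjusted p = 0.326) and 0.39 (SE 0.163, adjusted p = 0.159), and their unadjusted p-values in edgeR's test were 0.00938, 0.0176 and 0.0261. For Gabbr2 they were 0.82 (SE 0.288, adjusted p = 0.156), 1.04 (SE 0.330, adjusted p = 0.256) and 1.32, of which the last passed (95% interval 0.80 to 1.85). In edgeR on the 2 groups alone it did not pass (1.33, adjusted p = 0.0589). The shares of all genes that were higher were 0.0389%, 0% and 3.07% in edgeR's model of the 8 groups. At 2 wpt edgeR called 0 genes in either direction, with 2219 genes at an unadjusted p under 0.05. DESeq2 called 1236 genes on the 2 groups alone, both receptor genes among them (adjusted p = 0.0131 for Gabbr1 and 0.0467 for Gabbr2), and 193 genes when fitted on all libraries. In edgeR's model of the 8 groups, the size of the Gabbr2 difference at 2 wpt rested on the pair of +PBS-2w libraries. It was 0.59 without +PBS-2w replicate 1 and 1.70 without replicate 2. At 4 wpt Gabbr1 passed in the fit without +PBS-4w replicate 1 (0.51, adjusted p = 0.0307).

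The effect of the cells was not shown to change over time. The differences between weekly effects ranged from -0.16 to 0.01 for Gabbr1 and from 0.22 to 0.50 for Gabbr2 on the log2 scale, and none passed in edgeR (adjusted p of at least 0.999), as for all genes tested, 0% of which passed. Between 413 and 702 genes had an unadjusted p under 0.05 in these comparisons, and DESeq2 called 2 genes at most. The widest of these was between 4 and 1 wpt for Gabbr2, with a 95% interval of -0.29 to 1.29. At an unadjusted p under 0.05, too, 0 of the 6 passed.

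Relative to intact cord, the transcript of the coupling subunit was still lower with cells at every time. Gabbr2 stood at 39.1% ± 1.94, 53.8% ± 14.6 and 47.5% ± 13.9 of the Intact mean in +MSC-1w, +MSC-2w and +MSC-4w (SD, n = 3, 3 and 4), against 22.1% ± 2.69, 26.2% ± 13.6 and 19.0% ± 5.32 in the +PBS groups (n = 3, 2 and 4). Its log2 fold changes against Intact were -1.35 (adjusted p = 0.000788), -0.89 (adjusted p = 0.0242) and -1.07 (adjusted p = 0.00259). The corresponding shares of genes lower than Intact were 14.8%, 6.44% and 13.6%. The call at 2 wpt was lost without Intact replicate 1, +MSC-2w replicate 2 or +MSC-2w replicate 3 (-0.78, -0.77 and -0.80, adjusted p up to 0.125).

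For Gabbr1 the levels with cells were 63.9% ± 6.17, 80.5% ± 10.2 and 68.3% ± 8.59 of the Intact mean. Its log2 fold changes against Intact were -0.65 (adjusted p = 0.00854), -0.31 (adjusted p = 0.229, 95% interval -0.68 to 0.06) and -0.55 (adjusted p = 0.0142). At 2 wpt 1 of the 3 +MSC libraries, at 808 CPM, was within the Intact range. The call at 4 wpt was lost without Intact replicate 1 or +MSC-4w replicate 2 (adjusted p = 0.0507 and 0.0588).

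Against sub-SCI, the tissue at the time of injection, both genes passed in all 3 +MSC groups. Gabbr1 was higher by 1.04, 1.37 and 1.13 on the log2 scale (adjusted p = 0.000471, 1.63e-05 and 5.34e-05), and Gabbr2 by 1.49, 1.95 and 1.77 (adjusted p = 0.000844, 3.63e-05 and 5.43e-05). Of all genes, 15.8%, 22.2% and 22.2% were higher in these comparisons, that is, 2851, 3985 and 3997 of the 5316, 7838 and 7700 genes that passed. Of the markers, 11, 12 and 12 of 15 for neurons (medians 1.65, 1.88 and 1.81) and 11, 11 and 10 of 12 for astrocytes were also higher, and 5, 8 and 7 of 8 for fibroblasts and 5, 7 and 7 of 12 for microglia and macrophages were lower. Their part in the levels of both genes was not tested. Group means of both genes had the same leading order, Intact, +MSC-2w, +MSC-4w, +MSC-1w and +PBS-2w, and sub-SCI was the lowest. Between neighbours in that order a single pair passed, Intact above +MSC-2w for Gabbr2. The order of neighbouring groups among +MSC and among the injured groups without cells is thus not resolved by the spread between libraries. Groups farther apart could pass, as Gabbr1 did in +PBS-2w and +PBS-4w against sub-SCI in the model of all groups.

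**Figure D2:**
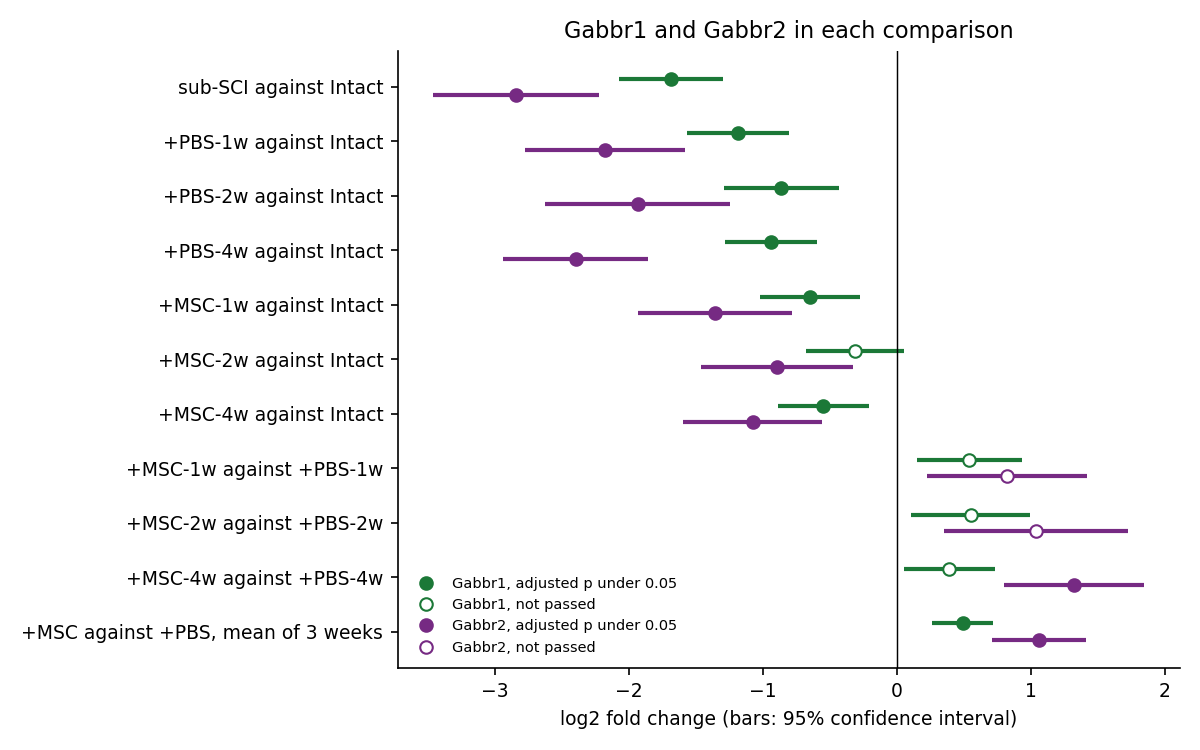
Log2 fold changes of Gabbr1 and Gabbr2 in 11 comparisons, with 95% confidence intervals from edgeR's model as bars. Filled points passed at an adjusted p under 0.05 and open points did not. Gabbr2 lies farther from 0 than Gabbr1 in each of these comparisons.

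The transcripts of the 2 subunits fell to unequal shares of their intact levels. This was tested within each library as the log2 ratio of Gabbr2 to Gabbr1 CPM, and no comparison with Intact passed after adjustment. The ratio was -2.66, -2.85, -2.79 and -2.67 in the Intact libraries and -4.17, -3.59 and -3.98 in sub-SCI. It was -3.70, -3.87 and -3.57 in +PBS-1w, -4.48 and -3.35 in +PBS-2w and -4.13, -4.38, -4.20 and -4.14 in +PBS-4w. In all 12 injured libraries without cells Gabbr2 had thus lost more than Gabbr1. The difference from Intact was -1.17 for sub-SCI, -0.97 for +PBS-1w and -1.47 for +PBS-4w, each with a two-sided exact permutation p of 0.0286, the smallest that the group sizes of 3 or 4 against 4 allow here, and an adjusted p of 0.0623 over the 24 tests of single values per library. For +PBS-2w it was -1.17, with an exact permutation p of 0.0667, again the smallest possible, so that it could not pass. The others could pass only if most of the 24 tests had p-values at least as small. Not passing therefore does not decide whether the ratio differed.

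With hUC-MSCs the ratio was closer to its intact value. It was -3.53, -3.30 and -3.50 in +MSC-1w, -3.13, -3.49 and -3.42 in +MSC-2w and -2.94, -3.24, -3.75 and -3.27 in +MSC-4w. All +MSC libraries remained below all Intact libraries. For these and for the libraries without cells, the share of all genes that lie so relative to Gabbr1 was not computed. A larger fall than that of Gabbr1 is not particular to Gabbr2, since 12 of 15 neuron markers also had it in sub-SCI. Averaged over the 3 weeks the ratio was 0.58 higher in +MSC than in +PBS (exact permutation p = 0.0005 with libraries permuted within weeks, adjusted p = 0.0120). The weekly differences were 0.27, 0.57 and 0.91, with exact permutation p-values of 0.100, 0.300 and 0.0286, and the ranges overlapped at 2 wpt, where +PBS-2w replicate 2 lay above all +MSC-2w libraries except replicate 1. Without +PBS-2w replicate 1 the mean difference was 0.40, and without all replicate 1 libraries it was 0.35. With only replicate 2 left in +PBS-2w, neither passed. In length-corrected terms, Gabbr1 exceeded Gabbr2 by 12.5 ± 2.44 times in sub-SCI, 15.1 ± 1.29 times in +PBS-4w and 8.19 ± 1.99 times in +MSC-4w in RPKM (SD, n = 3, 4 and 4).

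**Figure D3:**
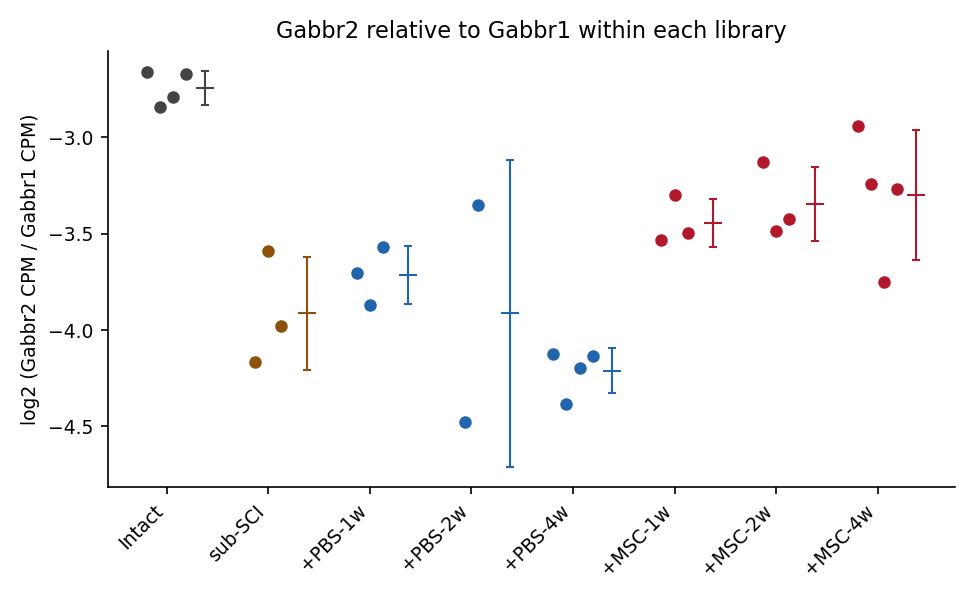
Log2 ratio of Gabbr2 to Gabbr1 CPM in each library by group. Points are libraries, and ticks with bars are group means ± SD. The Intact libraries, from -2.85 to -2.66, lie above all others, and the +PBS-4w libraries, from -4.38 to -4.13, lie below all +MSC-4w libraries.

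Markers of other cells moved with these changes. Of 15 neuron markers, 14 were lower and 0 higher in sub-SCI than in Intact, with a median log2 fold change of -2.71 against -0.02 over all genes, and 13, 8 and 14 were lower in the +PBS groups. The summed level of the neuron markers was 13590 to 16069 CPM in Intact, 884 to 3303 CPM in sub-SCI, 1812 to 8951 CPM in the 9 +PBS libraries and 5310 to 12370 CPM in the 10 +MSC libraries. All 15 neuron markers had counts in every library, 41 or more. In +MSC against +PBS over the 3 weeks 12 of 15 were higher and 0 lower, with a median of 0.90. Gabbr2 fell by more than 9 of the 15 neuron markers in sub-SCI, and Gabbr1 by less than 12 of them.

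Among the other lists, 12 of 12 microglia and macrophage markers and 8 of 8 fibroblast markers were higher in sub-SCI, with medians of 3.56 and 3.87. Of 12 oligodendrocyte markers, 11 were lower (median -1.14). Of 12 astrocyte markers, 7 were lower and 1 higher (median -1.15). Oligodendrocyte precursor markers were split, with 2 of 8 higher and 2 lower, and 4 of 8 endothelial and 3 of 8 Schwann cell markers were higher, with 1 lower in each. In +MSC against +PBS, 8 of 8 fibroblast, 5 of 12 microglia and macrophage and 4 of 8 endothelial markers were lower, 2 of 12 astrocyte markers and 1 of 12 oligodendrocyte markers were higher, 1 of 8 oligodendrocyte precursor markers was lower and 0 of 8 Schwann cell markers passed. The summed level of the microglia and macrophage markers ran from 376 to 617 CPM in Intact and from 4039 to 5326 CPM in sub-SCI, and that of the fibroblast markers from 172 to 1255 CPM and from 8020 to 19528 CPM. None of the markers tested was at 0 in any library, and of the endothelial list Cldn5 did not pass the expression filter and Pecam1 was not analysed here. The part of these shifts in cell makeup in the levels of Gabbr1 and Gabbr2 was not tested.

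Each member was therefore also set beside the mean log2 CPM of the 15 neuron markers in the same library. Gabbr1 lay 1.25 ± 0.02 above that mean in Intact (SD, n = 4) and 2.11 ± 0.52 above it in sub-SCI (n = 3), a difference of 0.86. It lay 2.01 ± 0.35 above in +PBS-1w (n = 3), 1.74 ± 0.51 in +PBS-2w (n = 2) and 2.18 ± 0.40 in +PBS-4w (n = 4). The ranges did not overlap that of Intact in any of these groups. The same was true of 87.6%, 85.0%, 82.2% and 70.0% of all genes other than these markers in sub-SCI, +PBS-1w, +PBS-2w and +PBS-4w, so this distance was shared with most genes and is not particular to Gabbr1. The exact permutation p was 0.0286 for sub-SCI, +PBS-1w and +PBS-4w and 0.0667 for +PBS-2w, each the smallest possible, and none passed after adjustment (adjusted p = 0.0623 and 0.114). As with the ratio, not passing at the smallest possible values does not decide the question.

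Gabbr2 lay below the neuron mean, by -1.50 ± 0.07 in Intact and by -1.80 ± 0.47 in sub-SCI. The difference of -0.31 did not exceed the spread (exact permutation p = 0.286). In +PBS-1w the difference from Intact was -0.21 (exact permutation p = 0.343), in +PBS-2w -0.68 (exact permutation p = 0.0667) and in +PBS-4w -0.54 (exact permutation p = 0.0286, adjusted p = 0.0623). In the last 2 groups all libraries lay below all Intact libraries, as for 3.0% and 0.573% of all genes other than the markers, and neither difference passed after adjustment. Both p-values were the smallest possible, so not passing does not decide the question here either.

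With hUC-MSCs the distance of Gabbr1 from the neuron markers was smaller, at 1.50 ± 0.22, 1.53 ± 0.15 and 1.40 ± 0.12 in the 3 +MSC groups. The neuron markers were themselves higher with cells, by a median of 0.90 over the weeks, against -0.02 over all genes. A fall relative to the markers is thus not particular to Gabbr1, and the share of all genes showing it was not computed. Averaged over weeks the difference of Gabbr1 from +PBS on this scale was -0.50 (exact permutation p = 0.00393, adjusted p = 0.0471). This call was lost in 16 of the 19 fits that each left out 1 library, with adjusted p up to 0.0762 and values from -0.62 to -0.38, and with the median of the markers in place of the mean. For Gabbr2 the mean difference was 0.08 (exact permutation p = 0.578), and it changed sign among the libraries other than replicate 1. The level of Gabbr2 relative to neuron markers was -1.94 ± 0.33, -1.82 ± 0.07 and -1.90 ± 0.26 with cells and -1.71 ± 0.42, -2.17 ± 0.29 and -2.03 ± 0.35 without.

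**Figure D4:**
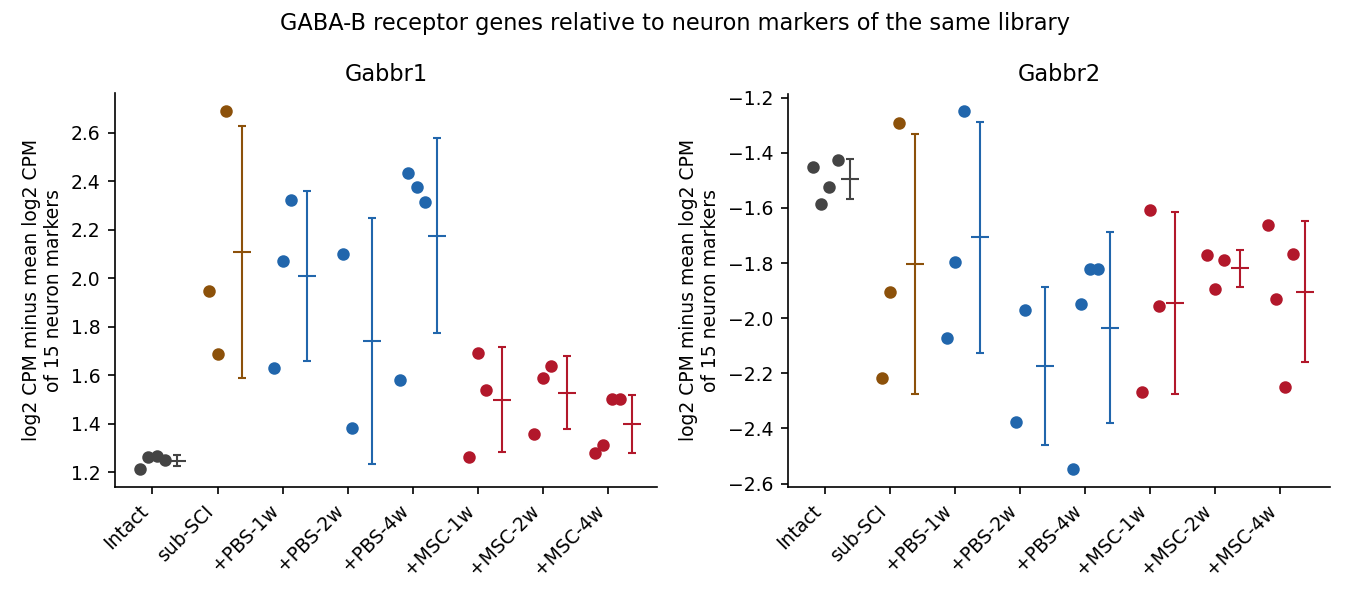
Log2 CPM of Gabbr1 and Gabbr2 minus the mean log2 CPM of 15 neuron markers in the same library, by group. Points are libraries, and ticks with bars are group means ± SD. Gabbr1 is nearest to the neuron markers in Intact, at 1.25, and farther above them in sub-SCI and +PBS, whereas the Gabbr2 means span -2.17 to -1.50.

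The genes whose pattern lay closest to each member were sought by the root mean square difference of centred log2 CPM over the 26 libraries. For Gabbr1 they were Cdip1 (0.130), Agpat3, Adgrb2, Pnkd and Wdr47 (0.144), against a median of 0.675 over all genes. For Gabbr2 they included Cacna2d2 (0.176), Mgat4c, Nsf and Slc8a3 (0.200), against a median of 1.04. Of these, Cacna2d2 encodes an accessory subunit of voltage-gated calcium channels, and Nsf encodes an ATPase of membrane fusion. The 2 receptor genes were 0.513 apart, which put Gabbr1 at place 1067 of 17989 genes in likeness to Gabbr2 and Gabbr2 at place 4394 in likeness to Gabbr1.

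Genes whose products bind the receptor moved mostly in the same direction as its subunits. The KCTD auxiliary subunits (Kctd8, Kctd12 and Kctd16) were not analysed here. Of 7 listed partners, 6 were lower in sub-SCI and 4 higher with cells, and the medians were -1.84 and 0.65. Of all 17990 genes tested, 11050 passed in sub-SCI, 5560 of them lower, and 4173 passed with cells, 2207 of them higher. These counts are the background for this list and for the lists that follow. Nsf, which binds the receptor, fell by 2.83 on the log2 scale (adjusted p = 2.22e-07) and was 1.03 higher in +MSC than in +PBS (adjusted p = 0.00106). Pianp, a membrane protein that binds the sushi domains of GABA-B1, fell by 2.18 (adjusted p = 5.6e-06) and was 0.68 higher with cells (adjusted p = 0.0138). Jakmip1, a microtubule-associated partner of GABA-B1, fell by 2.72 (adjusted p = 3.89e-06) and was 0.81 higher (adjusted p = 0.0130). The remaining partner that was higher with cells was Ajap1, another sushi domain ligand (0.65, adjusted p = 0.0207).

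The channels that the receptor opens were less abundant after injury, with 1 exception. Kcnj3, Kcnj6 and Kcnj9, which encode GIRK1, GIRK2 and GIRK3, fell by 3.34 (adjusted p = 3.57e-08), 4.05 (adjusted p = 9.08e-08) and 1.53 (adjusted p = 5.22e-08) on the log2 scale. Mean CPM of Kcnj3 went from 19.2 ± 2.55 in Intact (SD, n = 4) to 1.91 ± 0.946 in sub-SCI (SD, n = 3). Kcnj5, which encodes GIRK4, the subunit best known from the heart, rose by 1.36 (adjusted p = 0.000289). With cells Kcnj3 was 1.13 higher (adjusted p = 0.000685) and Kcnj6 1.05 higher (adjusted p = 0.00381), while Kcnj9 was at 0.16 (adjusted p = 0.250) and Kcnj5 at 0.02 (adjusted p = 0.964).

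The presynaptic calcium channels that the receptor inhibits followed the same course. Of 10 genes, 9 were lower in sub-SCI and 1 higher, and with cells 9 were higher and 1 lower. The exception in both was Cacnb3, a β subunit, with 0.64 (adjusted p = 0.00387) and -0.37 (adjusted p = 0.0202). Cacna1a, the pore of P/Q-type channels, fell by 1.48 (adjusted p = 1.21e-07) and was 0.54 higher with cells (adjusted p = 0.00109). Cacnb2, a channel β subunit, fell by 1.91 (adjusted p = 1.84e-08) and was 0.69 higher (adjusted p = 0.000456), and Cacna2d2 fell by 2.47 (adjusted p = 1.04e-07) and was 0.96 higher (adjusted p = 0.000575).

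The G proteins themselves were divided, as were all genes tested. Of 19 Gi and Go class genes, 10 were lower and 6 higher in sub-SCI. Gnai2 and Gnai3, inhibitory α subunits found in many cell types including immune cells, rose by 1.14 (adjusted p = 6.5e-09) and 1.22 (adjusted p = 2.52e-09), and Gnb2, a β subunit, rose by 0.88 (adjusted p = 2.05e-07). With cells 6 genes were higher and 4 lower. Gnai2 was 0.27 lower (-0.27, adjusted p = 0.00558) and Gnai3 0.25 lower (-0.25, adjusted p = 0.00784), whereas Gng2, a γ subunit, was 0.35 higher (adjusted p = 0.00772). The remaining genes that were lower with cells were Gnb2 (-0.21, adjusted p = 0.0187) and Gng10 (-0.29, adjusted p = 0.0326).

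Among regulators of the G protein cycle, 7 of 12 were lower and 2 higher in sub-SCI, and 5 were higher and 0 lower with cells. Gpr158, an orphan receptor that binds RGS7, fell by 2.91 (adjusted p = 4.91e-07) and was 0.99 higher with cells (adjusted p = 0.00231). Rgs6, which speeds GTP hydrolysis by Gi and Go, fell by 2.45 (adjusted p = 5.25e-07) and was 0.76 higher (adjusted p = 0.00475). Its relatives Rgs7, Rgs4 and Rgs8 were 0.86, 0.58 and 0.76 higher with cells (adjusted p = 0.0109, 0.0210 and 0.0174). Rgs2 rose by 0.66 after injury (adjusted p = 0.0019). Grk6, a receptor kinase, rose by 0.89 (adjusted p = 5.7e-09) and had a difference of -0.12 with cells (adjusted p = 0.0798).

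Of 9 adenylyl cyclases, a family that includes enzymes inhibited through Gi, 6 were lower and 2 higher in sub-SCI, and 5 were higher and 0 lower with cells. Adcy5 fell by 1.66 (adjusted p = 3.03e-09) and Adcy8 by 2.17 (adjusted p = 1.02e-07), and Adcy4 and Adcy7 rose by 3.04 (adjusted p = 2.33e-09) and 1.44 (adjusted p = 2.67e-05). With cells Adcy3 was 0.55 higher (adjusted p = 0.00093), Adcy2 0.66 higher (adjusted p = 0.00302) and Adcy5 0.36 higher (adjusted p = 0.00487), beside Adcy1 at 1.04 (adjusted p = 0.00493) and Adcy8 at 0.54 (adjusted p = 0.00891).

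On the ligand side, 7 of 9 genes for GABA synthesis, transport and breakdown were lower and 1 higher in sub-SCI, and with cells 7 were higher and 2 lower. The GABA transporter Slc6a11 (GAT-3) fell by 3.48 (adjusted p = 1.36e-08), and Abat, the GABA transaminase, fell by 2.93 (adjusted p = 7.48e-09). With cells Slc6a11 was 1.28 higher (adjusted p = 0.000309), and Aldh5a1, which completes GABA breakdown, was 0.64 higher (adjusted p = 0.00256). The transporters Slc6a13 and Slc6a12 went the other way, with -1.42 (adjusted p = 0.0079) and -1.27 (adjusted p = 0.0113), and Slc6a12 was the gene that rose after injury (1.41, adjusted p = 0.0306). For the ionotropic counterpart, 14 of 18 GABA-A receptor subunit genes were lower and 1 higher in sub-SCI and 10 were higher and 0 lower with cells, with medians of -2.18 and 0.68. Gabrr2, a GABA-A ρ subunit at 0.122 ± 0.134 CPM in Intact (SD, n = 4), was the gene that rose (4.83, adjusted p = 4.01e-08 in edgeR).

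**Figure D5:**
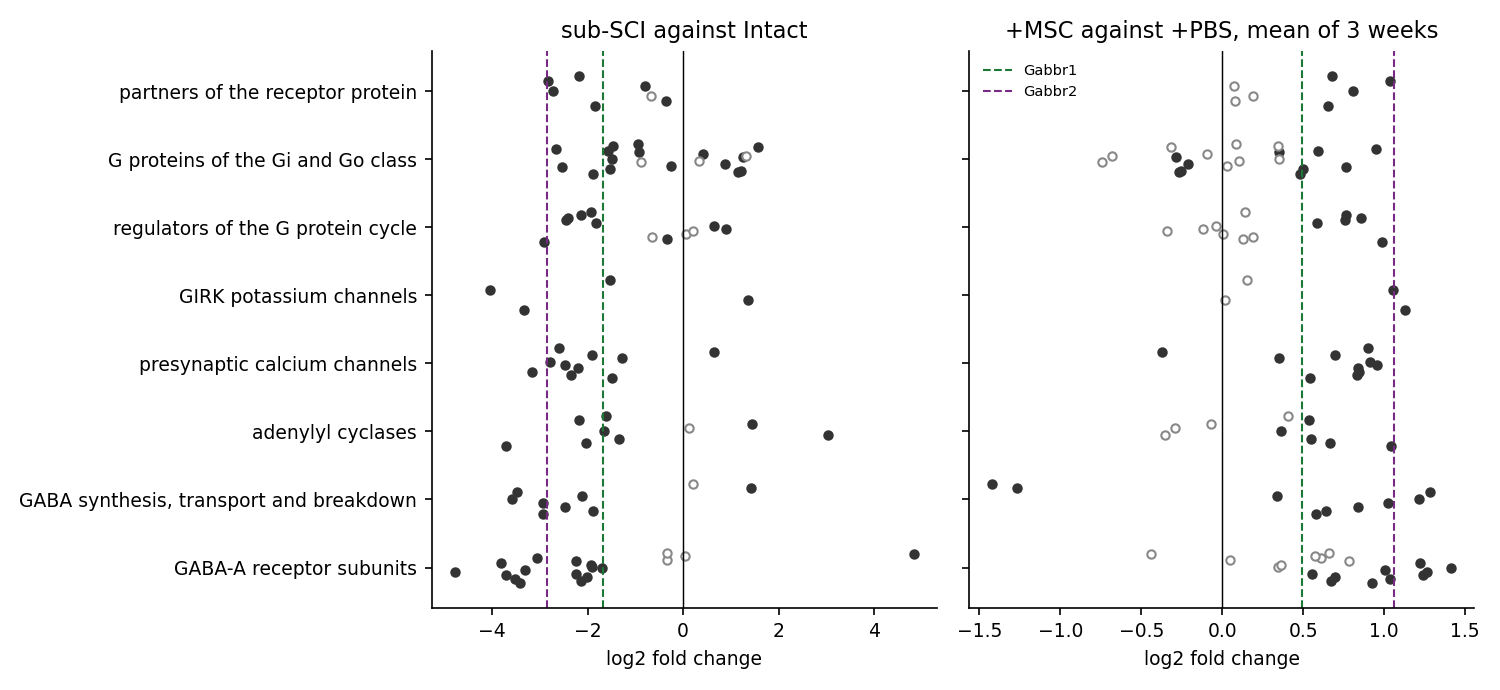
Log2 fold changes of the genes of 8 lists around the GABA-B receptor, in sub-SCI against Intact and in +MSC against +PBS averaged over 3 weeks. Each point is a gene, filled where the adjusted p was under 0.05, and dashed lines mark Gabbr1 (-1.68 and 0.49) and Gabbr2 (-2.84 and 1.06). In the right panel no partner, G protein, regulator, calcium channel or adenylyl cyclase gene lies to the right of Gabbr2. In the other lists 1 of 4 GIRK genes, 2 of 9 genes for GABA synthesis, transport and breakdown and 4 of 18 GABA-A subunit genes do.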

How the data were processed

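RNA-seq counts of rat genes were used as deposited. The authors trimmed reads with Trim Galore 0.5.0, removed reads that mapped to the human genome, mapped what remained to Rnor6 (HISAT2 2.1.0, SAMtools 1.9) and obtained gene counts with featureCounts 1.6.4. The deposited values are raw counts, with a gene length from the same table. The strand setting and annotation release are not given in the sources used here, so reads of a gene and of an overlapping antisense transcript cannot be told apart. In RefSeq on GRCr8, 2 lncRNA genes overlap the span of Gabbr2 and none that of Gabbr1. Removal of human reads could also take rat reads of conserved sequence, to an extent not tested.

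The labels gave each library its group. In the methods +MSC-2w, not +PBS-2w, has 2 libraries, and the labels were followed. Genes were filtered with filterByExpr, scaled by the trimmed mean of M-values and tested with edgeR 4.0.16 (R 4.3.3) in 1 model of the 8 groups. Adjusted p-values are Benjamini-Hochberg values across 17990 genes. SEs are the fold change divided by the square root of F. Log2 CPM used a prior count of 2. Single values per library were tested with two-sided exact permutation of group means, within weeks for the mean of 3 weeks, and adjusted over 24 tests. DESeq2 1.42.0 was an alternative. The tests were checked on simulated data. P-values set a difference against the variation between these libraries, and the labels do not say whether a library is 1 rat. Replicate numbers were not taken to pair libraries, since correlations between libraries of the same number reached down to -0.17.

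The 2 genes, the lists and the tests were chosen with earlier results of these data known. Named genes were both receptor genes, up to 3 genes of each list with the smallest adjusted p in sub-SCI against Intact and up to 3 in +MSC against +PBS over the 3 weeks, all GIRK genes and the 5 genes of most like pattern. Some genes that this rule names are not reported here. Rgs2, Rgs4, Rgs8, Gng10, Cacnb3, Adcy1, Adcy7, Slc6a12 and Ajap1 were added after their values were seen, to name each gene of a small count. The promoter sequences come from RefSeq on GRCr8, in which 2 of the 2 genes were found, and no coordinates of the build of the counts were used. The genes Pecam1, Rgs11 and Rgs7bp were not analysed here, and Cldn5, Gng13 and Gabra6 did not pass the expression filter.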

Additional observations from a re-analysis of the deposited data

Results flagged for a closer look

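In 15 tests of groups of 4 libraries (3 groups, 5 measures of the 2 genes), a single value lay far from the others. Gabbr1 in +PBS-4w replicate 1 was 1.58 above the mean of the neuron markers on the log2 scale, where the nearest of the other 3 libraries was at 2.32, so that the gap took 0.861 of the range of the group. The same library had the highest Gabbr1 and Gabbr2 levels of its group, at 590 and 33.8 CPM, and a summed neuron marker level of 8951 CPM against 2474 to 3445 CPM in the other 3. With about 1 in 20 groups expected to stand out in this way by chance, 1 of 15 is close to that rate. No difference in the effect of the cells between weeks passed for either gene.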

How the results depend on the processing

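With each library left out in turn and under the other alternatives (another tool, normalization, filter or set of libraries), no fold change of Gabbr1 or Gabbr2 against Intact, against sub-SCI or between +MSC and +PBS changed direction. DESeq2 on the 2 groups alone also called Gabbr2 at 1 wpt (0.80) and 2 wpt (1.03), Gabbr1 at 2 wpt (0.54) and Gabbr1 in +MSC-2w against Intact (-0.28). EdgeR on the 2 groups alone lost Gabbr2 at 4 wpt (1.33, adjusted p = 0.0589) and Gabbr1 in +PBS-2w and +PBS-4w against sub-SCI (0.81 and 0.73), where each fit holds fewer samples. Gabbr2 in +PBS-2w against sub-SCI passed with at least 10 counts in every library (0.88), with a term for replicate 1 libraries (0.91) and in DESeq2 on all libraries (0.88). Without the replicate 1 libraries its value was 1.32. The fit with the replicate number as a block gave 0.52 for Gabbr1 and 1.08 for Gabbr2 in +MSC against +PBS over the weeks and changed no call of the 2 genes. Same-numbered libraries did not all deviate together (correlations from -0.17 to 0.45). The libraries other than replicate 1 were chosen after seeing the data and leave only replicate 2 in +PBS-2w. Among them the Gabbr2 difference at 2 wpt was 0.33. The differences between weekly effects at 2 and 1 wpt turned to -0.066 for Gabbr1 and -0.52 for Gabbr2, and that at 4 and 2 wpt to 0.063 for Gabbr1. In the same libraries the ratio of Gabbr2 to Gabbr1 at 2 wpt was -0.10, and over weeks 0.35, Gabbr1 minus neuron markers was 0.23 at 2 wpt and -0.43 over weeks, and Gabbr2 minus neuron markers was -0.12 at 4 wpt and -0.084 over weeks. With the median of the markers, Gabbr1 minus neuron markers was -0.50 (adjusted p = 0.0980) and Gabbr2 minus neuron markers at 4 wpt -0.049. The cause of these changes was not tested. Leaving out 1 library each gave 0.29 to 0.51 for Gabbr1 at 4 wpt, -1.14 to -0.77 for Gabbr2 in +MSC-2w and -0.60 to -0.47 for Gabbr1 in +MSC-4w against Intact, 0.63 to 0.97 for Gabbr1 and 0.25 to 1.32 for Gabbr2 in +PBS-2w against sub-SCI, 0.40 to 0.77 for the ratio and -0.62 to -0.38 for Gabbr1 minus neuron markers over weeks, -0.57 to 0.15 for the latter at 2 wpt, and -0.040 to 0.25 for Gabbr2 minus neuron markers at 4 wpt. Differences between weekly effects ranged from -0.11 to 0.17 (2 and 1 wpt) and -0.27 to 0.013 (4 and 1 wpt) for Gabbr1, and from -0.19 to 0.88 (2 and 1 wpt) and -0.38 to 0.69 (4 and 2 wpt) for Gabbr2. At 2 wpt a +PBS group of 2 libraries limits the precision.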
